A study of Mus musculus with 24 samples.

Results

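Trp53, which encodes the transcription factor p53, and 9 of its known target genes were followed through RNA sequencing libraries of mouse skin with and without the human papillomavirus 16 E7 oncoprotein. The genes were taken by symbol from the deposited counts: Trp53, Mdm2, Ccng1, Bax, Bbc3, Pmaip1, Trp53inp1, Sesn2, Gdf15 and Eda2r. They made up 10 of the 27180 rows, all 10 were found, and all 10 passed the filter on low counts in every fit. K14E7 mice (E7 below) carry the oncoprotein behind the keratin 14 promoter, which is active in basal keratinocytes, while whole ear skin and whole grafts were sequenced. Whole ear skin came from C57BL/6 control mice (C57) and K14E7 mice at 8 weeks of age, both labelled as C57BL/6 in strain. Grafted ear skin came from C57BL/6, K14E7 and CD1d-/-xK14E7 donors (CD1dKOxE7), always on a C57BL/6 recipient, at 14 and 28 days after grafting (dpg). CD1d presents lipid antigens to natural killer T cells, and a graft also holds cells of its recipient. Each of the 8 groups had 3 libraries, which gave 6 ear and 18 graft libraries, and ear libraries are counted in the order of their label numbers. The labels do not say whether the libraries of a group came from separate animals, so the p-values below measure the spread between these libraries.

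p53 is kept at a low level by Mdm2, a ubiquitin ligase that marks it for degradation and whose gene p53 itself activates, which closes a feedback loop. On DNA damage or oncogene activity p53 is stabilised, mostly at the level of the protein, and activates genes that stop the cell cycle, start apoptosis or adjust metabolism to stress. E7 binds the retinoblastoma family of proteins and frees E2F factors, and E2F factors can raise the ARF product of Cdkn2a, an inhibitor of Mdm2. Several of the targets also answer to other factors, such as ATF4 in the integrated stress response.

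The promoters of the genes were searched for the p53 half-site, the palindromic core that p53 dimers recognise, because p53 acts through such sites. RefSeq promoter windows (GRCm38.p6, 250 bases before to 50 after a gene's start) were found for 8 of the 10 genes, and not for Pmaip1 and Trp53inp1. A half-site on either strand lay in the window of Trp53, Mdm2, Ccng1 and Bax, and in none of the windows of Bbc3, Sesn2, Gdf15 and Eda2r. By comparison, 9.55% of 26994 genes and 8.36% of 32817 windows of the same length held one. A pair of such half-sites 0 to 13 bases apart, the layout of a full response element, was in none of these genes' windows. It was in 0.0731% of all windows. Only half-sites that matched the consensus at every base were counted. Elements with a mismatch or outside the windows were not searched for, so these genes may still hold a full element. The stretches that hold the half-site are shown with it in capitals, each 5′ to 3′ on the strand of its gene, with positions counted from the gene's start.
Trp53 (chr11:69580269-69580308, plus strand, half-site from base -75): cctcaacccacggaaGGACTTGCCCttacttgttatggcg
Mdm2 (chr10:117710920-117710959, minus strand, half-site from base -186): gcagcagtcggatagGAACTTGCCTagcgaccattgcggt
Ccng1 (chr11:40755447-40755486, minus strand, half-site from base -185): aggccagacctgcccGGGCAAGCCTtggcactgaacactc
Bax (chr7:45467075-45467114, minus strand, half-site from base -201): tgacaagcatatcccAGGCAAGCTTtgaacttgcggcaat
A match describes these letters and is not evidence of binding.

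Library totals were 6550011 to 13814448 counts, and levels are given as CPM, the counts scaled to a common library size by TMM normalization. The E7 row was read at 17.6 to 57.2 CPM in all 15 libraries labelled as carrying the transgene and at no more than 0.135 CPM in the 9 C57 libraries. By their labels ear and grafts were sequenced on separate flow cells, and the lane of the CD1dKOxE7 grafts held no C57 or E7 grafts, so flow cell and tissue, and lane and CD1d donor, cannot be told apart. C57 and E7 libraries shared a lane within ear and within grafts. Cd1d1 was read in all 6 CD1dKOxE7 libraries, the labels do not say which part of the locus is deleted, and the libraries are called by their label. CD1dKOxE7 replicate 3 at 28 dpg stood apart from replicates 1 and 2. Its E7 row was at 18.8 CPM against 44.1 and 44.4 CPM, and Cd1d1 was at 5.33, 4.44 and 14.7 CPM in replicates 1, 2 and 3. Its 6 leukocyte markers summed to 4052 CPM against 2116 and 2160 CPM, and its 6 proliferation markers to 831 CPM against 1271 and 1210 CPM. The CD1dKOxE7 libraries at 14 dpg were at 17.6 to 23.5 CPM for the E7 row and 11.4 to 17.3 CPM for Cd1d1, with sums of 4106 to 5025 CPM for leukocyte and 814 to 940.4 CPM for proliferation markers. In the E7 row, Cd1d1 and summed proliferation markers replicate 3 at 28 dpg thus lay inside the range of the 14 dpg libraries. In summed leukocyte markers it lay just below that range. In other genes, named after their values were seen, each CD1dKOxE7 library at 28 dpg lay outside that range. Krt10 was at 7502 to 17437 CPM at 28 dpg and 2925 to 4535 CPM at 14 dpg. Atf3 was at 94.8 to 114 and 30.4 to 35.1 CPM, and Bcl2l11 at 28.5 to 38.4 and 56.3 to 64.3 CPM. Ptprc, a leukocyte marker, was at 95.7 to 204.5 and 372.8 to 461.9 CPM. Of the other leukocyte markers Cd3e and Cd74 were separate too. Those of Csf1r (111.9 to 244 and 227.1 to 236.5 CPM), Itgam (38.8 to 124.9 and 77.1 to 102.7 CPM) and Lyz2 (561 to 1309 and 1231 to 1704 CPM) overlapped between the days. The ranges of Krt1 overlapped as well (10020 to 22000 and 7936 to 11940 CPM). Replicate 3 is called by its label, and whether the day on it is right was not tested. Results that rest on it are given with and without it.

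None of the 10 genes fell in E7 skin against C57 skin, in ear or in grafts. In ear 7 of 10 rose: Mdm2, Bbc3, Pmaip1, Trp53inp1, Sesn2, Gdf15 and Eda2r. Of all 15720 genes tested in ear 65.3% passed the threshold, 32.6% rose and 32.7% fell, so a passing share of 7 in 10 is near that of all genes. In grafts at 14 dpg 3 of 10 rose (Trp53, Mdm2 and Pmaip1), where 30.2% of all genes passed, 15.8% rose and 14.4% fell. In grafts at 28 dpg 5 of 10 rose (Trp53, Mdm2, Pmaip1, Trp53inp1 and Sesn2), where 35.4% of all genes passed, 20.7% rose and 14.7% fell. Mdm2 and Pmaip1 rose in each of the 3 comparisons. The median log2 fold change of the 10 genes was 0.54 in ear, 0.30 at 14 dpg and 0.33 at 28 dpg, beside 0.0024, -0.035 and 0.0061 over all genes. All p-values are from edgeR's quasi-likelihood test with Benjamini-Hochberg adjustment over all genes, and "rose" and "fell" mean an adjusted p below 0.05. In whole tissue, fewer cells of a type and less RNA per cell cannot be told apart.

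**Figure D1:**
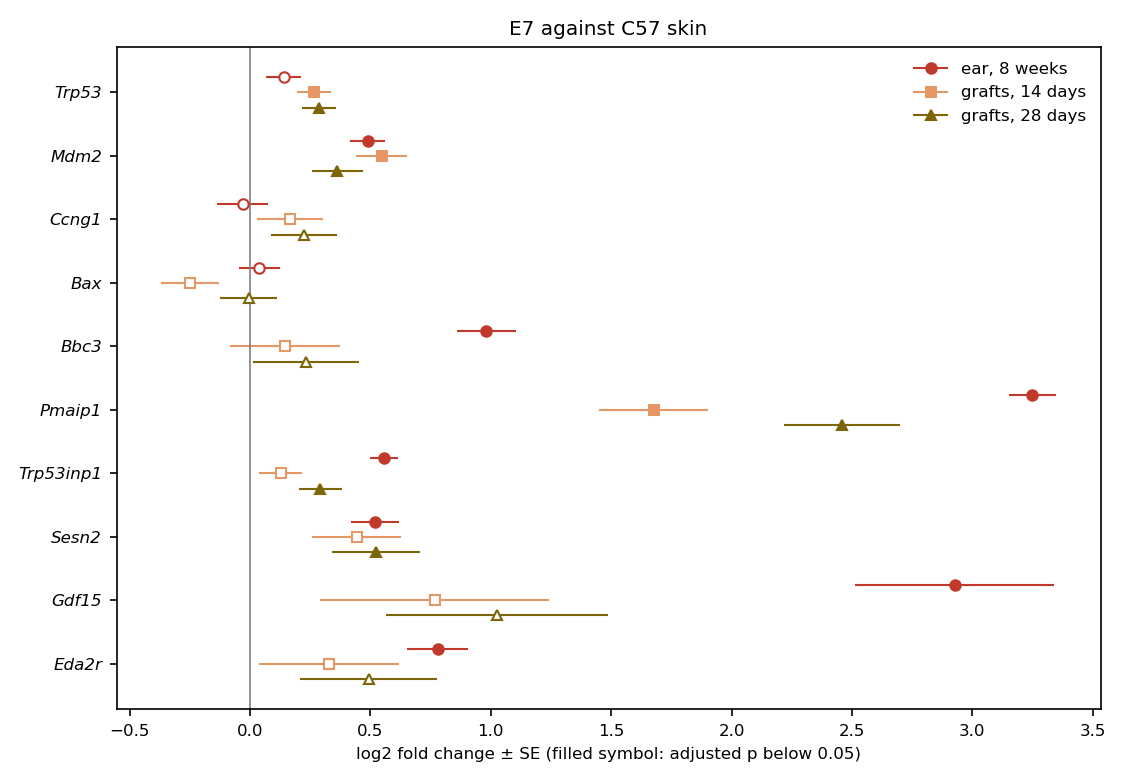
Log2 fold change of E7 against C57 skin (horizontal axis, ± SE) for each of the 10 genes in ear and in grafts at 14 and 28 dpg, with filled symbols where the adjusted p was below 0.05. Pmaip1 lay farthest to the right in all 3 comparisons, from 1.68 to 3.25.

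The marker genes of cell types differed between the same groups. In ear all 6 proliferation markers rose and summed to 218 to 295 CPM in C57 and 1629 to 1726 CPM in E7 libraries. Of these, Ccnb1 was read from a row on chromosome 7 that may be a copy of the cyclin B1 gene. All 6 also rose in grafts. There the sums were 529.6 to 617 CPM in C57 and 1322 to 1464 CPM in E7 skin at 14 dpg, and 244 to 310 CPM and 911 to 1018 CPM at 28 dpg. Summed keratinocyte markers were at 22828 to 24996 CPM in C57 and 42281 to 48431 CPM in E7 ear, where 4 of 6 rose and 1 fell, and none of the 6 was at 0 in any group. Krt1 and Krt10, keratins of differentiating keratinocytes, rose from means of 844 and 11865 CPM to 10637 and 22630 CPM. Krt5 was at means of 5631 and 5794 CPM and did not pass (adjusted p = 0.724), and Krt15 fell (log2 -2.15 ± 0.11). These keratins were named after their values were seen. In ear all 6 fibroblast, all 6 skeletal muscle, all 6 adipocyte and all 5 tested cartilage markers fell. In grafts 4 of 6 fibroblast markers fell at 14 dpg and 5 of 6 at 28 dpg, and 3 of 6 leukocyte markers fell at 14 dpg, with sums of 1725 to 2977 CPM in C57 and 887 to 1535 CPM in E7 grafts. The sixth cartilage marker, Matn1, had 0 counts in C57 ear, E7 ear and E7 grafts at 14 dpg. The part of these differences in the changes of the p53 target genes was not tested.

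For Trp53 itself the differences were small. Its libraries were at 54.0, 51.7 and 58.3 CPM in C57 ear and 63.8, 60.1 and 56.7 CPM in E7 ear. The ear groups overlapped, with a log2 difference of 0.14 ± 0.073 that did not pass (adjusted p = 0.114). In grafts at 14 dpg Trp53 was at 65.4, 73.8 and 65.4 CPM in C57 and 77.8, 83.2 and 82.6 CPM in E7 skin, and at 28 dpg at 59.4, 66.8 and 61.4 CPM and 74.9, 74.7 and 76.2 CPM. Each E7 graft was above each C57 graft of its day, and Trp53 rose by 1.20-fold at 14 dpg (log2 0.27 ± 0.071, adjusted p = 0.0114) and 1.22-fold at 28 dpg (log2 0.29 ± 0.071, adjusted p = 0.00600). Without C57 graft replicate 3 the call at 14 dpg was lost (adjusted p = 0.0564).

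Mdm2, the ligase that limits p53 and a p53 target in its own right, was higher in E7 skin in all settings. Its level was 64.8, 69.8 and 73.2 CPM in C57 ear and 89.3, 101 and 102 CPM in E7 ear. Every E7 ear library lay above every C57 ear library, and Mdm2 rose by 1.40-fold (log2 0.49 ± 0.072, adjusted p = 0.000117). In grafts the C57 libraries held 67.5, 70.7 and 65.0 CPM at 14 dpg and 76.3, 75.2 and 72.6 CPM at 28 dpg. E7 grafts held 92.3, 93.9 and 108 CPM at 14 dpg and 89.0, 101 and 94.5 CPM at 28 dpg, again with no overlap on either day. The increases were 1.46-fold (log2 0.55 ± 0.11, adjusted p = 0.00161) and 1.29-fold (log2 0.36 ± 0.10, adjusted p = 0.0145). The call at 28 dpg was lost without C57 graft replicate 3 (adjusted p = 0.0506) and without E7 graft replicate 2 (0.0594).

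Ccng1, which encodes cyclin G1 and is among the most regular p53 targets in mouse tissues, did not pass in any comparison of E7 with C57 skin. Its ear libraries were at 98.6, 82.8 and 115 CPM in C57 and 100.3, 92.7 and 97.5 CPM in E7 skin, where the E7 range lay inside the C57 range (log2 -0.031 ± 0.11, adjusted p = 0.817). In grafts at 14 dpg it was at 72.2, 73.9 and 80.6 CPM in C57 and 76.8, 72.6 and 102 CPM in E7 skin (log2 0.17 ± 0.14, adjusted p = 0.381). At 28 dpg the values were 105, 115 and 87.8 CPM and 113, 121 and 120.4 CPM (log2 0.22 ± 0.14, adjusted p = 0.209). One E7 graft, replicate 3 at 14 dpg, stood above the other E7 grafts of that day.

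Of the genes of mitochondrial apoptosis, Bax encodes the effector that opens the outer mitochondrial membrane, and Bbc3 (PUMA) and Pmaip1 (NOXA) encode BH3-only proteins that set it free. Bax was at 23.6, 26.4 and 26.9 CPM in C57 ear and 25.9, 27.0 and 26.1 CPM in E7 ear, overlapping groups that differed by 0.038 ± 0.086 on the log2 scale (adjusted p = 0.711). In grafts the C57 libraries were at 40.8, 42.6 and 45.1 CPM at 14 dpg and 39.7, 41.8 and 40.2 CPM at 28 dpg. The E7 grafts were at 31.1, 36.6 and 39.2 CPM and 40.4, 42.3 and 37.2 CPM, all below the C57 grafts at 14 dpg and overlapping them at 28 dpg. Neither difference passed, with log2 values of -0.25 ± 0.12 at 14 dpg (adjusted p = 0.122) and -0.0041 ± 0.12 at 28 dpg (adjusted p = 0.983). Exons of Bax overlap those of the predicted gene Gm45808 by 192 bases on the same strand, so reads there could belong to either.

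Bbc3 was at 11.5, 9.99 and 12.4 CPM in C57 ear and 25.0, 22.4 and 19.6 CPM in E7 ear. The lowest E7 ear library was above the highest C57 ear library, and Bbc3 rose by 1.98-fold (log2 0.98 ± 0.12, adjusted p = 3.65e-05). In grafts at 14 dpg it was at 10.1, 8.76 and 9.91 CPM in C57 and 8.41, 9.76 and 13.2 CPM in E7 skin, and at 28 dpg at 14.1, 13.8 and 12.6 CPM and 15.8, 18.5 and 12.9 CPM. The graft groups overlapped on both days, with log2 differences of 0.15 ± 0.23 (adjusted p = 0.661) and 0.23 ± 0.22 (adjusted p = 0.427). The graft effect minus the ear effect was -0.85 ± 0.29 at 14 dpg (adjusted p = 0.0548) and -0.77 ± 0.28 at 28 dpg (adjusted p = 0.0968), which did not pass.

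Pmaip1 differed most of the 10 genes between E7 and C57 skin. Its ear libraries were at 6.30, 7.13 and 7.65 CPM in C57 and 64.5, 64.4 and 72.4 CPM in E7 skin, an increase of 9.51-fold (log2 3.25 ± 0.098, adjusted p = 1.75e-09). C57 grafts were at 16.2, 14.6 and 16.9 CPM at 14 dpg and 9.58, 8.12 and 8.52 CPM at 28 dpg. E7 grafts were at 42.4, 54.0 and 54.8 CPM at 14 dpg and 37.5, 52.6 and 53.5 CPM at 28 dpg. Each E7 library was above every C57 library of its setting. Pmaip1 rose by 3.20-fold at 14 dpg (log2 1.68 ± 0.23, adjusted p = 0.000136) and 5.50-fold at 28 dpg (log2 2.46 ± 0.24, adjusted p = 3.64e-06). The effect at 14 dpg was smaller than in ear, with a difference between the effects of -1.58 ± 0.29 on the log2 scale (adjusted p = 0.00126). For 28 dpg against ear the difference of effects was -0.81 ± 0.30 and did not pass (adjusted p = 0.110). Per kilobase of exon, C57 ear held 16.3 CPM of Bax, 5.32 CPM of Bbc3 and 2.57 CPM of Pmaip1. E7 ear held 16.7, 10.5 and 24.6 CPM per kilobase, so that Pmaip1 went from the lowest level of these 3 genes to the highest.

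**Figure D2:**
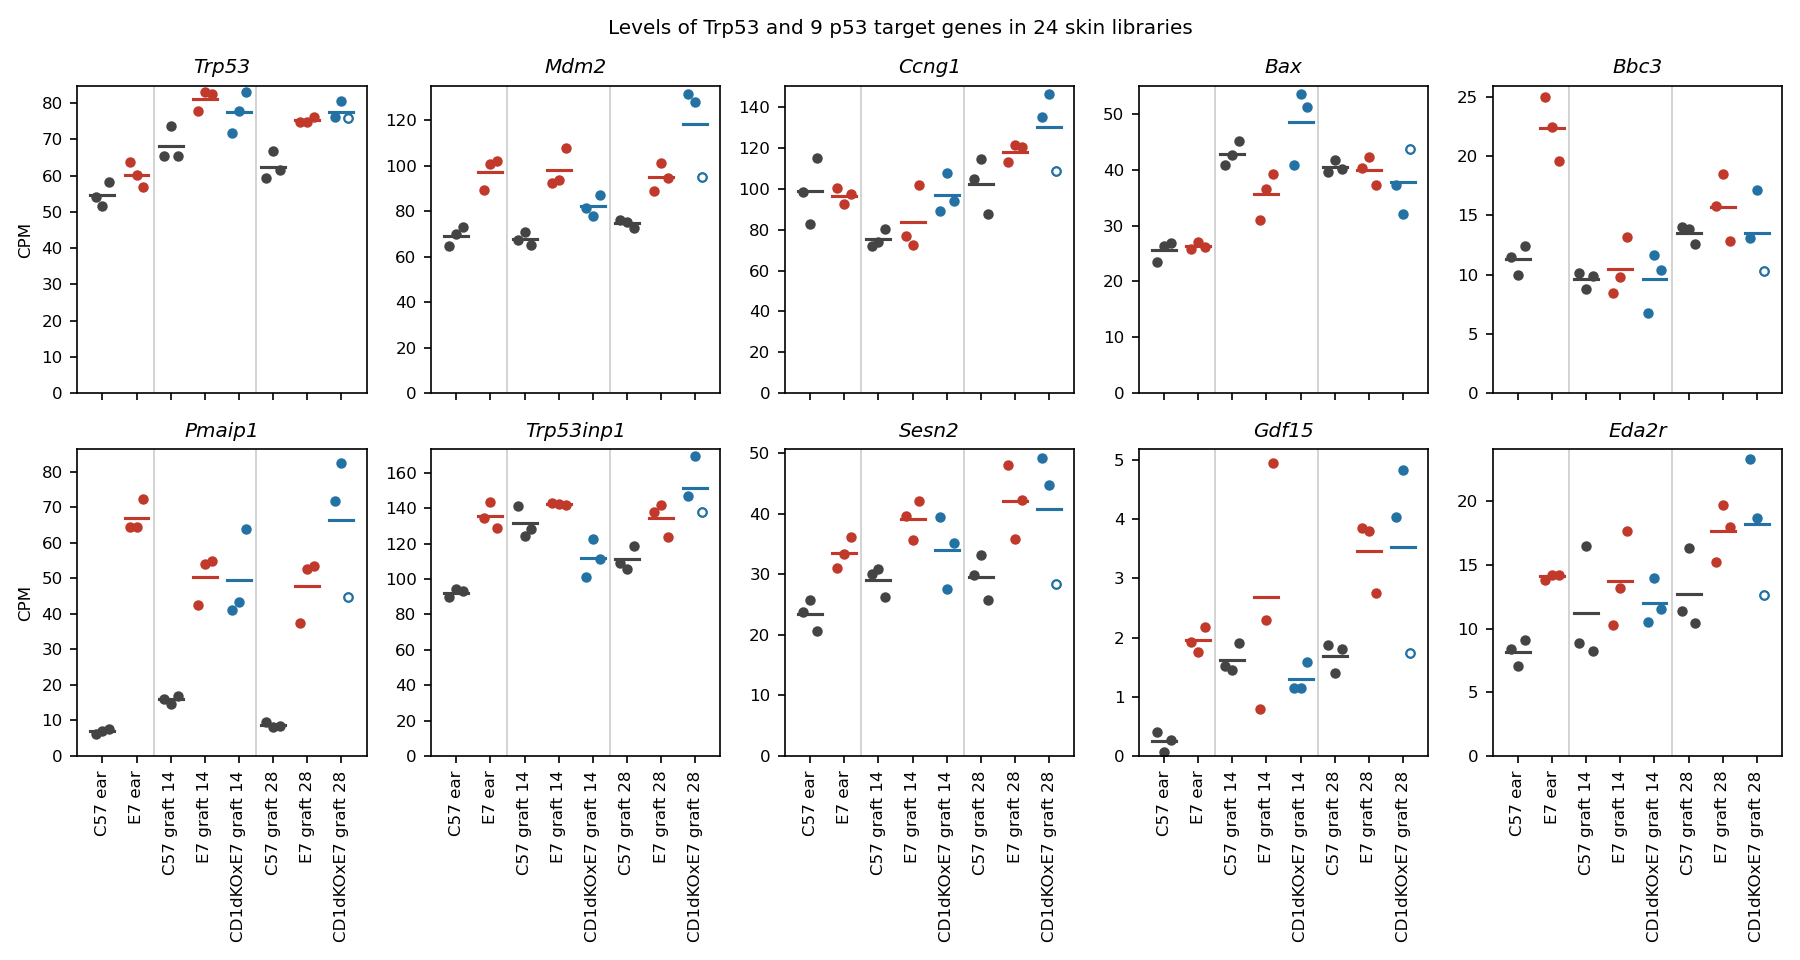
CPM (vertical axes, from 0) of each gene in every library, grouped along the horizontal axis by donor and setting, with points for libraries and bars for the means of 3. The open point is CD1dKOxE7 replicate 3 at 28 dpg. The E7 and CD1dKOxE7 libraries of Pmaip1 lie between 37.5 and 82.55 CPM and its C57 libraries between 6.30 and 16.95 CPM.

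Trp53inp1 encodes a stress-induced protein that promotes autophagy and p53 activity. In ear it was at 89.8, 94.2 and 92.9 CPM in C57 and 134, 144 and 129 CPM in E7 skin, with no overlap, and rose by 1.47-fold (log2 0.56 ± 0.060, adjusted p = 1.12e-05). In grafts at 14 dpg it was at 141, 124 and 128 CPM in C57 and 143, 142 and 142 CPM in E7 skin, separate groups whose difference did not pass (log2 0.13 ± 0.090, adjusted p = 0.295). At 28 dpg it was at 109, 105 and 118 CPM and 138, 142 and 124 CPM and rose by 1.22-fold (log2 0.29 ± 0.090, adjusted p = 0.0201). C57 grafts at 14 dpg overlapped E7 ear. The effect of E7 at 14 dpg minus that in ear was -0.44 ± 0.11 on the log2 scale (adjusted p = 0.0138). The call at 28 dpg was lost without C57 replicate 1 (adjusted p = 0.0603) or 2 (0.0708), without E7 replicate 1 (0.0618) or 2 (0.0755), and with upper quartile normalization (0.0550). The difference between 14 dpg and ear was lost without the first (0.0523) or the second (0.0793) E7 ear library, C57 replicate 1 (0.0812) or E7 replicate 1 (0.0567) at 14 dpg.

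Sesn2 encodes sestrin 2, a leucine sensor that restrains mTORC1 and answers to both p53 and ATF4. It was at 23.8, 25.8 and 20.6 CPM in C57 ear and 31.0, 33.4 and 36.1 CPM in E7 ear, separate groups, and rose by 1.43-fold (log2 0.52 ± 0.10, adjusted p = 0.000849). Grafts at 14 dpg held 30.0, 30.8 and 26.3 CPM in C57 and 39.5, 35.6 and 42.1 CPM in E7 skin, also separate, but the difference did not pass (log2 0.44 ± 0.18, adjusted p = 0.0803). With the fit limited to those 6 libraries it passed (adjusted p = 0.0175). At 28 dpg the values were 29.9, 33.2 and 25.7 CPM and 47.9, 35.8 and 42.2 CPM, an increase of 1.44-fold (log2 0.52 ± 0.18, adjusted p = 0.0373). That call was lost without C57 replicate 1 (adjusted p = 0.0822) or 3 (0.131) and without E7 replicate 1 (0.137) or 3 (0.0773). It was also lost with upper quartile normalization (0.0570) and with no filter on low counts (0.0619).

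Gdf15, a secreted stress cytokine of the TGF-beta family, had the fewest counts of the 10. There were 10 counts over the 3 C57 ear libraries, at 0.409, 0.0751 and 0.271 CPM, and E7 ear was at 1.92, 1.76 and 2.18 CPM. The groups were separate and Gdf15 rose (log2 2.93 ± 0.41, adjusted p = 8.55e-05), though the size of the fold rests on those few counts. C57 grafts were at 1.52, 1.46 and 1.91 CPM at 14 dpg and 1.88, 1.40 and 1.81 CPM at 28 dpg. E7 grafts at 14 dpg spread from 0.793 to 4.94 CPM (0.793, 2.30 and 4.94 CPM), wider than any other group, and those at 28 dpg were at 3.85, 3.81 and 2.75 CPM, above every C57 graft of that day. Neither graft difference passed, with log2 values of 0.77 ± 0.48 (adjusted p = 0.234) and 1.03 ± 0.46 (adjusted p = 0.0939). Fitted on those 6 libraries alone, the difference at 28 dpg passed (adjusted p = 0.0154).

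Eda2r encodes a receptor for the A2 form of ectodysplasin, a TNF family ligand of skin appendages. It was at 8.42, 7.06 and 9.14 CPM in C57 ear and 13.9, 14.2 and 14.2 CPM in E7 ear, where the groups were separate and Eda2r rose by 1.72-fold (log2 0.78 ± 0.13, adjusted p = 0.000237). In grafts it was at 8.85, 16.5 and 8.23 CPM in C57 and 10.3, 13.2 and 17.7 CPM in E7 skin at 14 dpg, and at 11.4, 16.4 and 10.5 CPM and 15.3, 19.7 and 18 CPM at 28 dpg. The groups overlapped on both days and did not pass (log2 0.33 ± 0.29, adjusted p = 0.412, and 0.49 ± 0.28, adjusted p = 0.186). Its ligand gene Eda moved the other way and fell in ear (log2 -1.17 ± 0.12, adjusted p = 9.94e-06), at 14 dpg (log2 -0.82 ± 0.21, adjusted p = 0.00893) and at 28 dpg (log2 -0.67 ± 0.21, adjusted p = 0.0195). Edar, the receptor for the other ectodysplasin form, fell in ear by 2.74-fold (log2 -1.46 ± 0.25, adjusted p = 0.000359).

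For the effect of E7 at 28 dpg minus that at 14 dpg, edgeR and DESeq2 called 0 of the 10 genes, where 0.167% of all genes passed. At an unadjusted p below 0.05 there was 1, Pmaip1, whose effect at 28 dpg minus that at 14 dpg was 0.78 ± 0.33 on the log2 scale (adjusted p = 0.480). Between ear and grafts at 14 dpg the effect differed for 2 of 10, the Pmaip1 and Trp53inp1 values above, where 12.6% of all genes passed. DESeq2 called 3 of 10 there, and its share of all genes is not given here. For ear and grafts at 28 dpg edgeR and DESeq2 called 0 of 10, 4 had an unadjusted p below 0.05, and 7.43% of all genes passed.

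Grafting went with its own differences, which cannot be told apart from the flow cell. In C57 skin at 14 dpg 6 of 10 passed against C57 ear, where 52.6% of all genes did. Trp53 (log2 0.32 ± 0.069, adjusted p = 0.000710), Bax (0.74 ± 0.11, adjusted p = 1.21e-05), Pmaip1 (1.18 ± 0.22, adjusted p = 0.000208), Trp53inp1 (0.51 ± 0.080, adjusted p = 2.63e-05) and Gdf15 (2.65 ± 0.60, adjusted p = 0.000996) rose. Ccng1 fell by 1.31-fold (log2 -0.39 ± 0.13, adjusted p = 0.0205), a call lost without the third C57 ear library (0.130) or C57 graft replicate 2 (0.0568). At 28 dpg 4 of 10 passed, beside 39.2% of all genes, and all 4 rose: Trp53 (log2 0.19 ± 0.069, adjusted p = 0.0335), Bax (0.66 ± 0.11, adjusted p = 0.000109), Trp53inp1 (0.27 ± 0.080, adjusted p = 0.0128) and Gdf15 (2.72 ± 0.59, adjusted p = 0.00122). The Trp53 call at 28 dpg was lost with 4 of the other fits (adjusted p from 0.0527 to 0.0941), without the first (0.0893) or the second (0.138) C57 ear library, and without graft replicate 2 (0.155) or 3 (0.0570). The Trp53inp1 call was lost without graft replicate 3 (0.0702).

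The same comparison was made in E7 skin. At 14 dpg 3 of 10 passed, beside 43.2% of all genes: Trp53 rose (log2 0.43 ± 0.069, adjusted p = 5.24e-05), Bax rose (0.44 ± 0.11, adjusted p = 0.00323) and Bbc3 fell (-1.08 ± 0.20, adjusted p = 0.000210). At 28 dpg 4 of 10 passed, beside 48.1% of all genes, and Trp53 (0.32 ± 0.069, adjusted p = 0.000821) and Bax (0.60 ± 0.11, adjusted p = 0.000200) rose again. Bbc3 (-0.51 ± 0.19, adjusted p = 0.0346) and Pmaip1 (-0.49 ± 0.19, adjusted p = 0.0374) fell. The Bbc3 call at 28 dpg was lost without the first (0.133) or the second (0.0814) E7 ear library, without graft replicate 1 (0.0753) or 3 (0.150), and with upper quartile normalization (0.0679). The Pmaip1 call was lost without any one of the E7 ear libraries (0.0633, 0.0682 and 0.110), without graft replicate 1 (0.185), with upper quartile normalization (0.0654) and with no filter (0.0543). Bax was thus higher in grafts than in ear for both donors on both days, from 25.6 ± 1.83 CPM in C57 ear to 42.9 ± 2.15 CPM in C57 grafts at 14 dpg (mean ± SD, n = 3). Summed leukocyte markers were at 1398 to 1436 CPM in C57 ear and 1725 to 2977 CPM in those grafts, and summed fibroblast markers at 7993 to 8874 and 30472 to 45190 CPM. Their part in the difference was not tested.

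**Figure D3:**
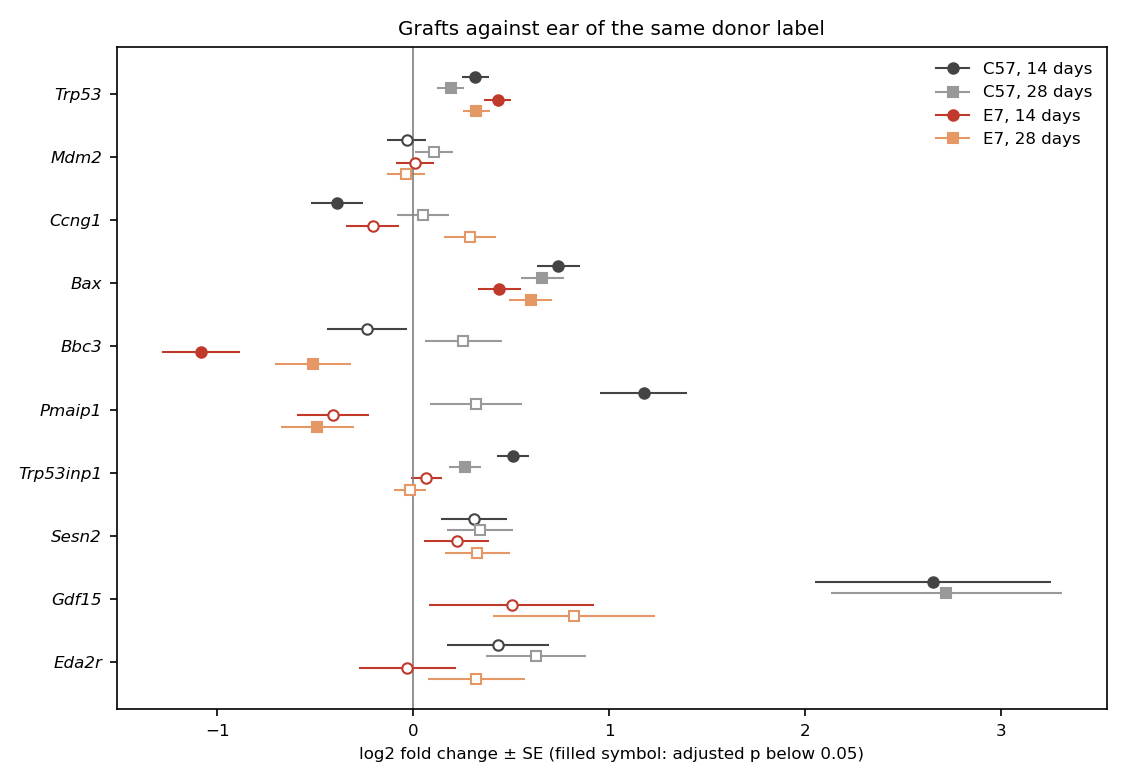
Log2 fold change of grafts against ear of the same donor label (horizontal axis, ± SE) for each gene at 14 and 28 dpg, filled where the adjusted p was below 0.05. Trp53 and Bax lie to the right of 0 in all 4 comparisons, and Bbc3 lies at -1.08 and -0.51 in E7 skin.

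From 14 to 28 dpg Ccng1 was the gene of the 10 that rose in grafts of all 3 donors. In C57 grafts 2 of 10 passed, where 22.6% of all genes did: Ccng1 rose (log2 0.45 ± 0.14, adjusted p = 0.0267) and Pmaip1 fell (log2 -0.85 ± 0.25, adjusted p = 0.0238). The 6 proliferation markers fell in the same grafts, with sums of 529.6 to 617 CPM at 14 dpg and 244 to 310 CPM at 28 dpg, and their part was not tested. In E7 grafts 1 of 10 passed, beside 17.2% of all genes, and it was Ccng1 (log2 0.51 ± 0.14, adjusted p = 0.0197). In CD1dKOxE7 grafts 5 of 10 passed, beside 22.6% of all genes: Mdm2 (log2 0.54 ± 0.10, adjusted p = 0.00197), Ccng1 (0.44 ± 0.14, adjusted p = 0.0296), Trp53inp1 (0.45 ± 0.090, adjusted p = 0.00257) and Gdf15 (1.48 ± 0.47, adjusted p = 0.0332) rose and Bax (-0.35 ± 0.12, adjusted p = 0.0424) fell. Without CD1dKOxE7 replicate 3 at 28 dpg 9 of 10 passed, and with only these 6 libraries in the fit 0 did. The C57 and E7 calls were each lost by leaving out single libraries. For Ccng1 in C57 grafts these were replicate 1 (adjusted p = 0.0901) or 2 (0.0794) at 14 dpg and 1 (0.0724) or 2 (0.114) at 28 dpg. For Pmaip1 they were replicate 1 (0.0622) or 3 (0.0641) at 14 dpg and 2 (0.0736) or 3 (0.0663) at 28 dpg. For Ccng1 in E7 grafts they were replicate 1 (0.0882) or 2 (0.0950) at 14 dpg and 2 (0.0639) at 28 dpg. In CD1dKOxE7 grafts the Mdm2 and Trp53inp1 calls held without any single library. There the Bax call was lost with upper quartile normalization (0.0569), with no filter (0.0574), without replicate 2 (0.160) or 3 (0.124) at 14 dpg and without 1 (0.110) or 2 (0.217) at 28 dpg. The Ccng1 call was lost without replicate 1 (0.109) or 3 (0.0878) at 14 dpg and without 1 (0.0967) or 2 (0.129) at 28 dpg. The Gdf15 call was lost without replicates 1 (0.0996), 2 (0.0904) or 3 (0.0563) at 14 dpg and without 1 (0.106) or 2 (0.141) at 28 dpg.

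CD1dKOxE7 grafts differed from E7 grafts in 2 of the 10 genes at 14 dpg, where 29.8% of all genes passed, and the lane cannot be told apart from the donor. Bax was at 40.8, 53.5 and 51.3 CPM in CD1dKOxE7 and 31.1, 36.6 and 39.2 CPM in E7 grafts and rose by 1.35-fold (log2 0.43 ± 0.12, adjusted p = 0.0114). The lowest CD1dKOxE7 library was above the highest E7 library, but the call was lost without E7 replicate 1 (0.0606) or CD1dKOxE7 replicate 2 (0.0613). Trp53inp1 was at 101, 123 and 112 CPM against 143, 142 and 142 CPM and fell by 1.28-fold (log2 -0.36 ± 0.090, adjusted p = 0.00704). Every CD1dKOxE7 library of Trp53inp1 was below every E7 library, a call that no left-out library removed. Mdm2 was at 81.4, 77.8 and 86.9 CPM in CD1dKOxE7 grafts, with a log2 difference of -0.27 ± 0.10 that did not pass (adjusted p = 0.0651). It passed with upper quartile normalization (0.0471) and with all 24 libraries in one fit (0.0476). Pmaip1 was at 41.0, 43.3 and 64.0 CPM, overlapping the E7 grafts (log2 -0.049 ± 0.21, adjusted p = 0.889). The 6 leukocyte markers all rose in the same comparison and summed to 887 to 1535 CPM in E7 and 4106 to 5025 CPM in CD1dKOxE7 grafts. The 6 proliferation markers all fell, with sums of 1322 to 1464 CPM in E7 and 814 to 940.4 CPM in CD1dKOxE7 grafts. Of the 6 keratinocyte markers 1 rose and 3 fell. Krt10 and Krt1, keratins of differentiating keratinocytes, were named after their values were seen. Krt10 fell (log2 -2.80 ± 0.31, adjusted p = 1.15e-05), from 17386 to 37275 CPM in E7 grafts against 2925 to 4535 CPM in CD1dKOxE7 grafts. Krt1 fell too (log2 -1.60 ± 0.27, adjusted p = 0.000342), while Krt14, a basal keratin, rose (0.57 ± 0.19, adjusted p = 0.0341). The part of any of these markers in the Bax and Trp53inp1 values was not tested.

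The other genes did not pass at 14 dpg. Trp53 was at 71.7, 77.9 and 83.2 CPM and Ccng1 at 89.5, 108 and 94.1 CPM in CD1dKOxE7 grafts. Bbc3 was at 6.74, 11.7 and 10.4 CPM, Sesn2 at 39.4, 27.6 and 35.1 CPM and Eda2r at 10.5, 14.0 and 11.6 CPM. Gdf15 was at 1.16, 1.16 and 1.59 CPM, with a log2 difference from E7 grafts of -1.12 ± 0.48 (adjusted p = 0.0939). It passed without E7 replicate 1 (adjusted p = 0.0147), and Ccng1 passed without E7 replicate 3 (0.0476).

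At 28 dpg edgeR and DESeq2 called 0 of the 10 genes between CD1dKOxE7 and E7 grafts, 2 had an unadjusted p below 0.05, and 0.21% of all genes passed. Mdm2 was at 132, 128 and 95.0 CPM and Pmaip1 at 71.8, 82.5 and 44.9 CPM in CD1dKOxE7 grafts, with the third library the lowest in both. Their log2 differences from E7 grafts were 0.31 ± 0.10 (adjusted p = 0.228) and 0.46 ± 0.21 (adjusted p = 0.376). Without that library Mdm2 passed (log2 0.45 ± 0.077, adjusted p = 0.00994), Pmaip1 did not (0.68 ± 0.18, adjusted p = 0.0629), and 304 genes passed in place of 34. The same library was the lowest of its group for Ccng1 (135, 147 and 109 CPM), Bbc3 (13.1, 17.1 and 10.3 CPM) and Sesn2 (49.2, 44.7 and 28.3 CPM). It was also the lowest for Gdf15 (4.03, 4.83 and 1.74 CPM), Eda2r (23.3, 18.7 and 12.7 CPM), Trp53inp1 (147, 169 and 138 CPM) and, by little, Trp53 (76.1, 80.7 and 75.8 CPM). Bax was the exception, at 37.4, 32.1 and 43.8 CPM with the third library the highest.

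The donor difference changed between the days for 3 of the 10 genes, where 12.8% of all genes passed. The difference at 28 dpg minus that at 14 dpg was 0.58 ± 0.15 for Mdm2 (adjusted p = 0.0190), 0.52 ± 0.13 for Trp53inp1 (0.0159) and -0.53 ± 0.17 for Bax (0.0495), all on the log2 scale. Without CD1dKOxE7 replicate 3 at 28 dpg 4 of 10 passed, with values of 0.72 for Mdm2, 0.59 for Trp53inp1 and -0.63 for Bax. The share of all genes that passed in that fit is not given here. The Mdm2 call was lost without E7 replicate 1 (adjusted p = 0.0502) or CD1dKOxE7 replicate 1 (0.0602) or 2 (0.0562) at 28 dpg. The Bax call was lost in 9 of the 12 fits that left out a library of these groups (adjusted p up to 0.141) and with 5 of the other settings (0.0509 to 0.112). The Mdm2 call was also lost with only these groups in the fit (0.0572). A Trp53inp1 call remained in each of those 12 fits. In the same difference 6 of 6 proliferation and 2 of 6 keratinocyte markers rose and 3 of 6 leukocyte markers fell, and their part was not tested.

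**Figure D4:**
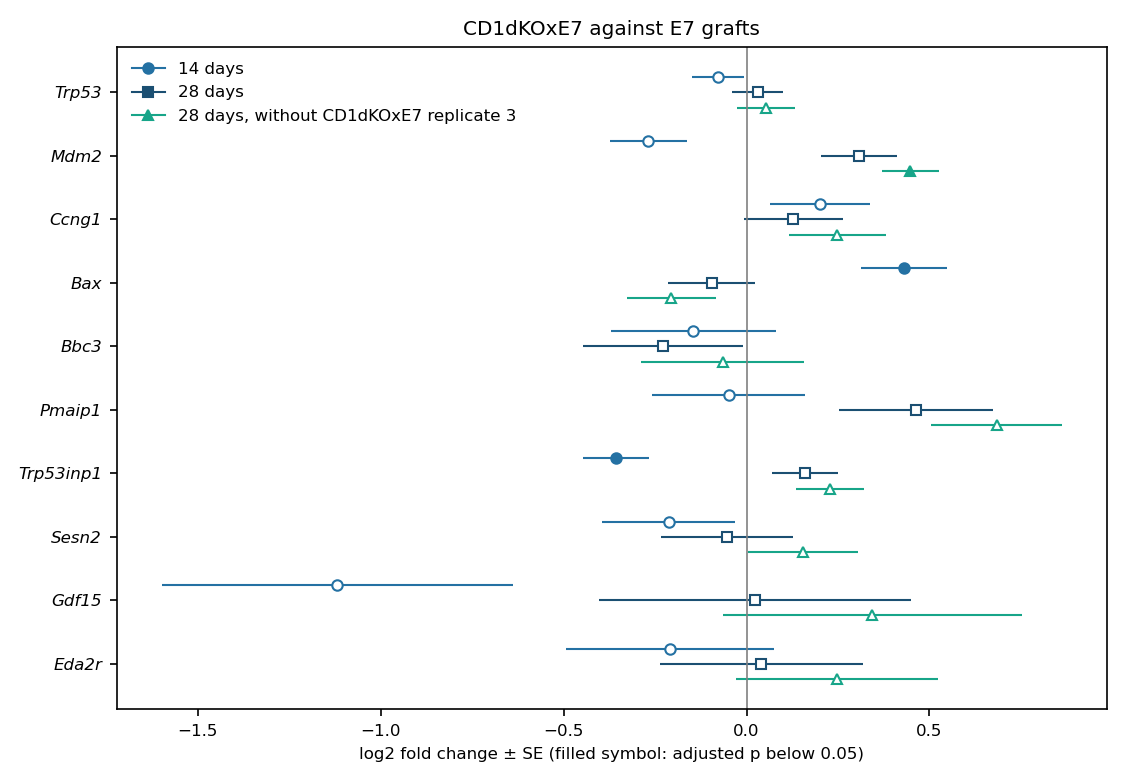
Log2 fold change of CD1dKOxE7 against E7 grafts (horizontal axis, ± SE) for each gene at 14 dpg, at 28 dpg and at 28 dpg without CD1dKOxE7 replicate 3, filled where the adjusted p was below 0.05. Mdm2 and Trp53inp1 lie left of 0 at 14 dpg and right of 0 at 28 dpg, and Bax the other way round.

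Other p53 targets were read from 4 lists of 28 genes sorted by role. Of the 8 genes of the cell cycle arrest list 7 rose and 0 fell in ear, 5 rose and 0 fell at 14 dpg, and 4 rose and 0 fell at 28 dpg, with median log2 fold changes of 1.37, 0.68 and 0.57. Over all genes 32.6%, 15.8% and 20.7% rose. The list includes Gtse1 and Psrc1, which are also expressed by dividing cells and rose in all 3 comparisons. The smallest adjusted p-values in ear were those of Plk3 (log2 1.84 ± 0.067), Btg2 (1.43 ± 0.057) and Psrc1 (2.55 ± 0.13), which also rose at 14 dpg: a kinase of the stress response, an antiproliferative factor and a spindle protein. At 28 dpg they were Psrc1 (1.93 ± 0.20), Gtse1 (1.60 ± 0.22) and Plk3 (0.66 ± 0.12). Cdkn1a, which encodes the cyclin-dependent kinase inhibitor p21, was at 241, 232 and 192 CPM in C57 ear and 571, 557 and 534 CPM in E7 ear. It rose by 2.50-fold in ear (log2 1.32 ± 0.087, adjusted p = 2.83e-07), 1.79-fold at 14 dpg (log2 0.84 ± 0.18, adjusted p = 0.00335) and 1.78-fold at 28 dpg (log2 0.83 ± 0.18, adjusted p = 0.00257). Exons of Cdkn1a overlap those of AC167363.2 by 273 bases on the other strand, which a kit that does not mark strand cannot separate. Zmat3, an RNA-binding regulator, was at 58.9 ± 3.71 CPM in C57 ear and 60.5 ± 2.39 CPM in E7 ear (mean ± SD, n = 3) and did not pass there (adjusted p = 0.613).

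Of the 8 genes of the cell death list 4 rose and 1 fell in ear, and 4 rose and 0 fell in grafts on each day, with medians of 0.29, 0.23 and 0.28. In ear the passing share of the list was near the 65.3% of all genes. Over all genes 32.6% rose in ear, 15.8% at 14 dpg and 20.7% at 28 dpg. Pidd1, which assembles the caspase-2 platform, rose in ear (log2 1.34 ± 0.11), at 14 dpg (0.73 ± 0.16) and at 28 dpg (1.08 ± 0.16). Aen, an apoptosis-enhancing nuclease, rose in ear (0.67 ± 0.075) and at 28 dpg (0.66 ± 0.11). Perp, a desmosomal protein of stratified epithelia, rose in ear (0.50 ± 0.091), at 14 dpg (0.35 ± 0.11) and at 28 dpg (0.30 ± 0.11).

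Of 5 DNA repair genes 1 rose and 3 fell in ear, and 1 rose and 1 fell on each day in grafts, with medians of -0.23, -0.011 and -0.022. Xpc, the lesion sensor of nucleotide excision repair, fell in ear (log2 -0.74 ± 0.10), at 14 dpg (-0.40 ± 0.090) and at 28 dpg (-0.53 ± 0.088). Polk, a translesion polymerase, rose in the same comparisons (0.39 ± 0.095, 0.36 ± 0.11 and 0.37 ± 0.11). All 7 genes of the metabolism and autophagy list fell in ear, 4 of 7 at 14 dpg and 2 of 7 at 28 dpg. In this list 0 rose, and the medians were -0.55, -0.47 and -0.29. The list also holds Ptprv, a tyrosine phosphatase rather than a metabolism or autophagy gene. Ptprv fell in ear (log2 -0.86 ± 0.21), at 14 dpg (-0.85 ± 0.24) and at 28 dpg (-0.77 ± 0.25). Over all genes 65.3%, 30.2% and 35.4% passed, 32.6%, 15.8% and 20.7% rose, and 32.7%, 14.4% and 14.7% fell. Sesn1, the sister gene of Sesn2, fell in ear (-0.55 ± 0.076) and at 14 dpg (-0.47 ± 0.14), where Sesn2 rose in ear. Ak1, an adenylate kinase abundant in muscle, fell in ear (-1.86 ± 0.22), at 14 dpg (-0.62 ± 0.22) and at 28 dpg (-1.04 ± 0.22). Muscle markers summed to 3335 to 6239 CPM in C57 and 1124 to 1706 CPM in E7 ear. In grafts the sums were 255 to 943 CPM in C57 and 112 to 725 CPM in E7 skin at 14 dpg, which overlapped, and 1581 to 3713 and 942 to 1028 CPM at 28 dpg, which did not. Whether muscle content had a part in it was not tested.

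Of 11 regulators and paralogs of p53, 8 rose and 1 fell in ear, 5 rose at 14 dpg and 4 at 28 dpg, beside 32.6%, 15.8% and 20.7% of all genes that rose. Cdkn2a, which encodes ARF and p16, had 4 counts over the 3 C57 ear libraries and was at 8.18, 8.78 and 6.44 CPM in E7 ear. In grafts it was at 1.90, 1.90 and 0.716 CPM in C57 and 4.13, 3.18 and 3.91 CPM in E7 skin at 14 dpg, and at 2.69, 1.26 and 5.17 CPM and 7.08, 6.34 and 5 CPM at 28 dpg. Cdkn2a rose in ear (adjusted p = 2.14e-07), at 14 dpg (log2 1.33 ± 0.42, adjusted p = 0.0263) and at 28 dpg (log2 1.04 ± 0.37, adjusted p = 0.0368), where one C57 library lay inside the E7 range. Counts per gene do not separate ARF from p16. Ppm1d, the phosphatase that switches p53 signalling off and a p53 target, rose in ear (log2 0.76 ± 0.079), at 14 dpg (0.34 ± 0.092) and at 28 dpg (0.38 ± 0.092). Atm, the kinase that signals double-strand breaks, rose in ear (0.52 ± 0.089), at 14 dpg (0.53 ± 0.093) and at 28 dpg (0.47 ± 0.094), and Chek2, a kinase downstream of it, in ear (1.18 ± 0.13) and at 28 dpg (0.76 ± 0.14). Mdm4, the relative of Mdm2 that blocks p53 without degrading it, was at 98.3 ± 7.18 CPM in C57 ear and 109 ± 2.61 CPM in E7 ear (mean ± SD, n = 3) and did not pass (adjusted p = 0.0706). Trp63, the p53 relative that maintains basal keratinocytes, rose by 1.26-fold in ear (log2 0.33 ± 0.078, adjusted p = 0.00289) and did not pass in grafts (adjusted p = 0.406 and 0.108).

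**Figure D5:**
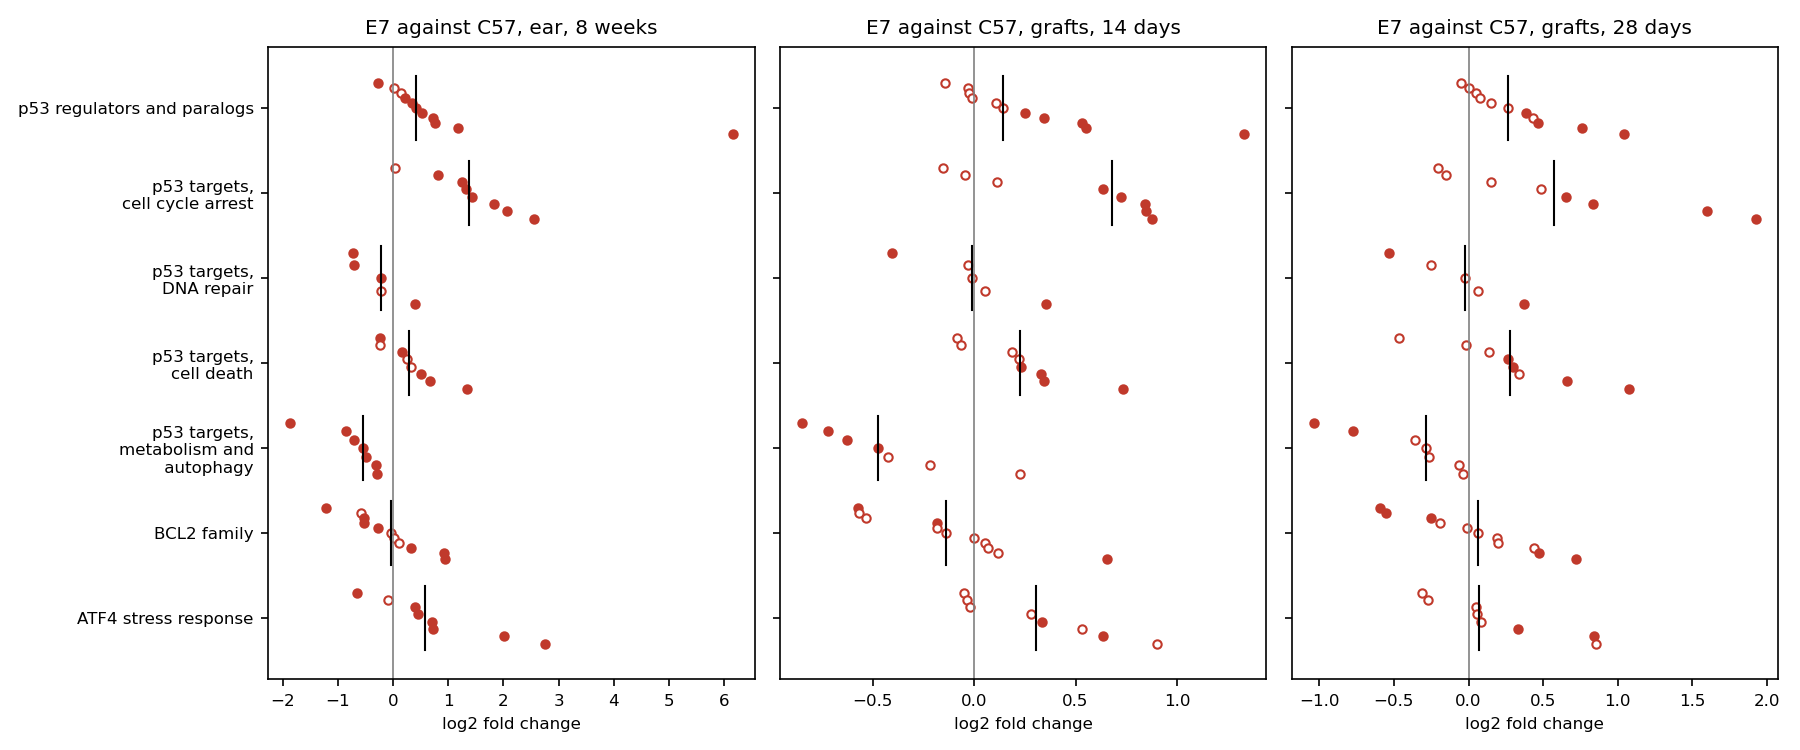
Log2 fold change of E7 against C57 skin (horizontal axes, with a different scale in each panel) for the genes of 7 lists in ear and in grafts at 14 and 28 dpg, filled where the adjusted p was below 0.05. Black bars are list medians, at 1.37, 0.68 and 0.57 for cell cycle arrest and at -0.55, -0.47 and -0.29 for metabolism and autophagy.

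Of 11 tested BCL2 family genes beside Bax, Bbc3 and Pmaip1, 3 rose and 4 fell in ear, 1 rose and 2 fell at 14 dpg, and 2 rose and 3 fell at 28 dpg. Over all genes 65.3% passed in ear (32.6% rose, 32.7% fell), 30.2% at 14 dpg (15.8%, 14.4%) and 35.4% at 28 dpg (20.7%, 14.7%). In ear and at 14 dpg the passing share of the BCL2 list was thus near that of all genes. Bok, a relative of Bax, rose each time (log2 0.94 ± 0.066, 0.65 ± 0.087 and 0.72 ± 0.087), and Bcl2, the founding survival factor, fell in ear (-1.21 ± 0.12) and at 28 dpg (-0.55 ± 0.20). Of 8 ATF4 stress response genes 6 rose and 1 fell in ear, and 2 rose and 0 fell on each day in grafts. Asns, asparagine synthetase, rose in all 3 comparisons (log2 0.73 ± 0.076, 0.63 ± 0.12 and 0.84 ± 0.12). Chac1, a glutathione-degrading enzyme, rose in ear (2.02 ± 0.14). Of 6 ectodysplasin pathway genes, Eda2r included, 4 rose and 2 fell in ear, with Eda2r among the 4. In grafts 2 rose and 1 fell at 14 dpg, and 1 rose and 1 fell at 28 dpg.

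Between CD1dKOxE7 and E7 grafts at 14 dpg 15.1% of all genes rose and 14.8% fell. Of the 8 genes of the arrest list 0 rose and 4 fell, among them Zmat3 (log2 -0.51 ± 0.077), Plk3 (-0.71 ± 0.12) and Cdkn1a (-0.68 ± 0.18). Of the 11 tested BCL2 family genes 5 rose and 1 fell, led by Bak1 (1.15 ± 0.13), Bcl2l11 (1.00 ± 0.13) and Mcl1 (0.50 ± 0.089), an effector, a BH3-only protein and a survival factor. In the cell death list 2 rose and 3 fell, with Fas, a death receptor, (1.32 ± 0.22) and Apaf1, the apoptosome scaffold, (0.68 ± 0.10) higher. Dram1, a lysosomal autophagy protein, rose (1.55 ± 0.20), 1 of 7 in its list. Of the 11 regulators 3 fell, of the 8 ATF4 genes 2 and of the 6 ectodysplasin genes 2, and in these and the 5 DNA repair genes 0 rose. The 6 leukocyte markers rose in the same comparison by a median of 1.90 on the log2 scale, and their part was not tested.

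Over the 24 libraries Pmaip1 was most like Gmnn (Pearson r of log2 CPM 0.982) and Slfn9 (0.978). Bax was most like Tmsb10 (0.958), Il3ra (0.949) and Tmem176a (0.948). Mdm2 was most like Slc25a25 (0.923), Brd2 (0.918) and Gphn (0.907). Trp53inp1 was most like Calml3 (0.923), Asprv1 (0.92) and Sh3bp5l (0.914), and Trp53 most like Fam96b (0.913), Hnrnph1 (0.909) and Cmpk2 (0.907). For the other 5 genes no value reached 0.9. The libraries fall into 8 groups and share tissue, lane and depth, so the values describe these libraries and carry no test.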

How the data were processed

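The values used were the counts deposited by the authors: whole-number read counts per gene, 1 file per library, of total RNA made into libraries with the TruSeq RNA v2 kit, per the labels' protocols. The build was mm10, and Trimmomatic was used for all libraries, with bcl2fastq 1.8.4 for ear and FastQC for grafts, per the submitters' processing notes. The aligner, counting program, annotation and strand setting are not given in the sources used here. The files gave no symbol for 6099 of 27180 rows. Library totals were 6550011 to 13814448 counts.

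Counts were fitted with edgeR 4.0.16 and limma 3.58.1 in R 4.3.3: genes were kept by filterByExpr (10 counts, 15 in total), libraries were scaled by TMM, and p-values came from the robust quasi-likelihood test, adjusted by Benjamini-Hochberg over all genes of a comparison. The 6 ear libraries (15720 genes), the 18 graft libraries (16189 genes) and all 24 libraries (16612 genes, for graft against ear) were fitted apart. CPM came from the TMM sizes of the fit of all 24 libraries, and each SE is the fold change on the log2 scale divided by the root of F. The fit function was run on simulated counts in which few genes changed, which does not test it where most genes differ, as in ear. Figures were made with Python 3.11.15, pandas 2.3.3 and matplotlib 3.10.9.

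The genes and lists were chosen with earlier results of these data known. The 10 genes were named throughout, other lists by counts and at most 3 genes per comparison with the smallest adjusted p, with Cdkn1a, Cdkn2a, Trp63, Mdm4 and Zmat3 allowed throughout and some named genes also given in other comparisons where they passed, and like genes by the 3 highest Pearson r (log2 CPM, prior count 2) where the highest was at least 0.9; 1 gene that this rule names is not reported here. All 116 listed genes were matched to a row of the files by symbol or gene number. For Ccnb1 that row lies on chromosome 7 (bases 42105769 to 42107302) and may be a copy rather than the cyclin B1 gene. The alternatives tried were DESeq2 1.42.0, scaling by RLE or by the upper quartile, no filter or one of 1 CPM in 3 libraries, other sets of libraries in the fit, a replicate block and leaving out each library.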

Additional observations from a re-analysis of the deposited data

Results flagged for a closer look

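The differences between 2 effects given here passed edgeR's test of the difference itself, adjusted over all genes. The effect of E7 on Pmaip1 in grafts at 14 dpg minus that in ear was -1.585 on the log2 scale (SE 0.29, adjusted p = 0.00126), and that on Trp53inp1 -0.4416 (SE 0.11, adjusted p = 0.0138). Beside it, C57 skin at 14 dpg held 15.9 ± 1.19 CPM of Pmaip1 against 7.03 ± 0.682 CPM in C57 ear, and its proliferation markers summed to 529.6 to 617 against 218 to 295 CPM (n = 3 each); their part was not tested.

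The difference between CD1dKOxE7 and E7 grafts changed from 14 to 28 dpg by 0.5759 for Mdm2 (SE 0.15, adjusted p = 0.0190), by 0.5166 for Trp53inp1 (SE 0.13, adjusted p = 0.0159) and by -0.5269 for Bax (SE 0.17, adjusted p = 0.0495), all on the log2 scale. Summed leukocyte markers of CD1dKOxE7 grafts were at 4106 to 5025 CPM at 14 dpg and 2116 to 4052 CPM at 28 dpg, and those of E7 grafts at 887 to 1535 and 1794 to 2354 CPM. All 6 proliferation markers rose in the same difference. Krt10, a keratin of differentiating keratinocytes, had a mean of 3802 CPM in CD1dKOxE7 grafts at 14 dpg and 13742 CPM at 28 dpg, and of 26352 and 15178 CPM in E7 grafts (difference of the log2 effects 2.65 ± 0.41, adjusted p = 0.00128). The part of these markers was not tested.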

How the results depend on the processing

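The ear calls of 7 genes, those of Mdm2 at 14 dpg, Trp53 at 28 dpg and Pmaip1 on both days, and the lower Trp53inp1 of CD1dKOxE7 grafts at 14 dpg held under every alternative run. With upper quartile normalization the E7 effect passed for 3 of the 10 genes at 28 dpg and the difference between 14 dpg and ear for 1. The log2 difference of Bax in ear was then -0.08156 and that of Gdf15 between CD1dKOxE7 and E7 grafts at 28 dpg -0.002508. That scaling moved the median of all genes in ear to -0.1176, and higher genes from 50% to 39.1% of those called in ear and from 58.4% to 47.9% at 28 dpg. In fits limited to the groups compared, 0 of the 10 genes passed between days in CD1dKOxE7 grafts and 1 in the change of the donor difference between days. In such fits 8 of the 10 passed in E7 grafts at 28 dpg against ear, and 3 in the E7 effect at 28 dpg minus ear. Shares of all genes in these fits are not given here. The cause of these shifts in the counts was not tested.

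Leaving out each library in turn, the number of the 10 genes called ranged from 7 to 7 in ear, 2 to 3 at 14 dpg and 3 to 4 at 28 dpg for the E7 effect. It was 1 to 3 and 0 to 1 for CD1dKOxE7 against E7 at 14 and 28 dpg. Between days it was 0 to 1 in C57, 0 to 2 in E7 and 2 to 9 in CD1dKOxE7 grafts. Against ear it was 5 to 6 and 2 to 4 in C57, and 3 to 4 and 2 to 4 in E7 grafts at 14 and 28 dpg. For differences of effects it was 0 to 0 (28 minus 14 dpg), 1 to 4 (14 dpg minus ear), 0 to 0 (28 dpg minus ear) and 1 to 4 (donor difference). Shares of all genes in these fits are not given beside the counts. Log2 values that changed sign were -0.01778 to 0.07487 for Bax and -0.1435 to 0.09412 for Ccng1 in ear, -0.005165 to 0.2781 for Ccng1 and -0.06229 to 0.2719 for Bbc3 at 14 dpg, and -0.04348 to 0.04911 for Bax at 28 dpg. For CD1dKOxE7 against E7 they were -0.3317 to 0.06359 (Bbc3), -0.2684 to 0.07028 (Pmaip1) and -0.3694 to 0.01818 (Eda2r) at 14 dpg, and -0.2184 to 0.1542 (Sesn2), -0.1847 to 0.2476 (Eda2r), -0.2485 to 0.3439 (Gdf15), -0.0004589 to 0.05278 (Trp53) and -0.2054 to 0.005163 (Bax) at 28 dpg.

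Over all genes, 34 differed between CD1dKOxE7 and E7 grafts at 28 dpg, against 241 with DESeq2, 125 with all 24 libraries, 3 with only the groups compared and 4 to 304 without 1 library. For the E7 effect at 28 minus 14 dpg the numbers were 27, 155, 62, 55 and 12 to 72. In all 9 graft comparisons a replicate block left the number of the 10 genes called as it was (3 and 5 for E7, 2 and 0 for CD1dKOxE7, 2, 1 and 5 between days, 0 and 3 for differences of effects). It gave 65 in place of 34 over all genes, and among other listed genes 2 calls between days were lost. Replicate numbers did not pair the libraries of any groups compared here; the lowest correlation was above 0.1 for C57 with CD1dKOxE7 grafts at 14 dpg alone (0.107 to 0.187), which were not compared. No paired analysis was possible for ear because its groups share no library numbers. Few counts limit Gdf15 in C57 ear.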
